A study of Saccharomyces cerevisiae with 4 samples.

Results

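Values are given for 10 genes of zinc transport and of the response to the zinc-sensing activator Zap1 in Saccharomyces cerevisiae. The genes were taken by gene name or alias from the platform annotation of a spotted array and held 10 of its 8832 spots, 1 spot a gene. All 10 were measured on all 4 arrays and were among the 5137 genes tested. The 4 two-channel arrays each set total RNA of wild-type cells (Cy3) against total RNA of cells labelled lpz8 null (Cy5). The null cells had grown in low copper for 2 arrays and in high copper for the other 2. The label lpz8 was read as HAA1 from the series title, which names the copper-fist transcription factor Haa1. No strain background, marker allele, zinc level or copper concentration was given, the copper condition of the wild-type cells was not stated, and each condition had 1 array that its label calls a repeat.

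In budding yeast Zap1 senses zinc and, when zinc is scarce, activates genes through zinc-responsive elements in their promoters. Its targets include zinc transporters of the plasma membrane, transporters that move zinc into and out of the vacuole, which stores it, and the ZAP1 gene itself. ZRT1 is the classic readout of Zap1 activity, since zinc-starved cells raise it strongly and zinc-replete cells shut it off. Zinc was not varied here by any label, so the comparison asks how RNA of these genes stood in cells without Haa1, in either copper condition.

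Each value is the log2 of the null level over the wild-type level, with each array's median set to 0, so a value above 0 is a higher level in null cells. The base and the direction of the deposited ratios were inferred and not stated. No array had its dyes exchanged, so a dye effect on a single gene cannot be told apart from the genotype. HAA1 itself stood at -7.35 on low copper replicate 2, at -6.96 on high copper replicate 1 and at -4.15 on high copper replicate 2. Low copper replicate 1 gave it no value, so that array carried no check of the deletion. The arrays held 7254 to 8409 values, the fewest on low copper replicate 1. Over all genes tested the median distance between the 2 low copper arrays was 0.19 and that between the 2 high copper arrays was 0.12. Nothing shows that the 2 arrays of a condition came from different cultures, and p-values then cover the spread between these arrays alone, which may be technical.

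ZPS1 and ZRT1 were higher in null cells on all 4 arrays, and the vacuolar transporter genes lay near 0. Over both copper conditions 2 of the 10 genes passed the limma threshold (adjusted p up to 0.05), both higher, against 6.44% of all genes tested that were called higher and 5.24% called lower. The same 2 genes passed in low copper, where 0.234% of genes were called higher and 0.428% lower. ZPS1 alone passed in high copper, where 1.07% were higher and 1.5% lower. At an unadjusted p under 0.05 there were 3 of the 10 genes over both conditions and 4 in low copper, beside 35.6% and 30.5% of all genes. One sign on all 4 arrays was seen for 2 of the 10 genes and for 41.6% of all genes. The median ratio of the 10 genes was 0.064 over both conditions, 0.29 in low and -0.010 in high copper, beside medians of all genes of -0.015, -0.014 and -0.0085. The calls thus lay in 2 of the 10 genes, and the other 8 did not keep 1 sign over the arrays.

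**Figure D1:**
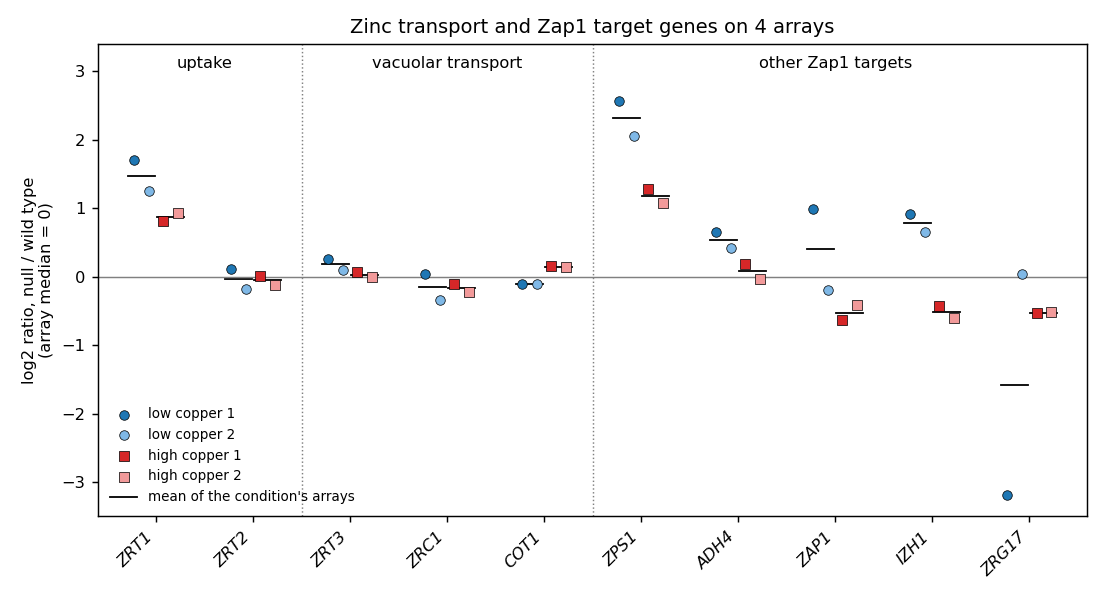
Each point is the log2 ratio of null over wild type (vertical axis) of 1 gene on 1 array, with circles for low copper, squares for high copper and bars for the mean of a condition's arrays. ZPS1 and ZRT1 stand above 0 on all 4 arrays, IZH1 lies above 0 on both low and below 0 on both high copper arrays, and the low copper bar of ZRG17 is set by 1 array at -3.19.

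Among the uptake genes, ZRT1 (YGL255W), the high-affinity zinc transporter of the plasma membrane, rose in null cells. Its ratio was 1.70 on the first and 1.25 on the second low copper array, and 0.81 and 0.93 on the high copper arrays. Both low copper arrays lay above both high copper arrays, and none was near 0. The mean over both conditions was 1.17 ± 0.40 (SD, n = 4), a 2.25-fold rise with a 95% interval of 1.88-fold to 2.70-fold and an adjusted p of 0.0159. It ranked 25 of 5137 genes by the size of the rise. In low copper the rise was 2.78-fold (1.47 ± 0.32, SD, n = 2, adjusted p = 0.0459). In high copper ZRT1 stood at 0.87 ± 0.08 (SD, n = 2, 1.83-fold), and its adjusted p of 0.063 missed the threshold. The high copper value passed in 4 of 13 alternatives. Among them were equal spread (0.97, adjusted p = 0.0158), with 387 of 5137 genes called, and the high copper pair alone (0.0058), with 898 called. The low copper call was kept in 5 of 13 alternatives. It was lost without centring (1.38, adjusted p = 0.0516), with separate spots (adjusted p = 0.0514), over genes on at least 3 arrays (0.0632) and when only the low copper pair was fitted (0.195). The trend and robust prior (0.0717), the replicate block (0.133) and leaving out either high copper array lost it too. Without either high copper array no gene of the table was called over both conditions, and ZRT1 then stood at 1.20 and 1.14 with adjusted p of 0.132 and 0.143.

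ZRT2 (YLR130C), the low-affinity transporter related to Zrt1, stood near 0. It lay at 0.11, -0.18, 0.009 and -0.12 on the arrays in the same order, and the conditions overlapped. Its mean over both conditions was -0.05 ± 0.13 (SD, n = 4, adjusted p = 0.679). The 95% interval of its ratio, 0.841-fold to 1.12-fold, did not reach the interval of ZRT1. The difference between the 2 genes was not tested, nor was how far RNA of related genes binds each other's spots.

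The 3 vacuolar transporter genes did not pass in any comparison. ZRT3 (YKL175W), which releases zinc from the vacuole, lay between -0.005 and 0.26 on the 4 arrays, with a mean of 0.11 ± 0.11 (SD, n = 4). ZRC1 (YMR243C), which brings zinc into the vacuole, lay between -0.34 and 0.04, with a mean of -0.16 ± 0.16. COT1 (YOR316C), the paralog of ZRC1 that also moves cobalt, had a mean of 0.02 ± 0.14. The adjusted p over both conditions was 0.264 for ZRT3, 0.251 for ZRC1 and 0.778 for COT1. The limma intervals of their ratios ran from 0.963-fold to 1.20-fold for ZRT3, from 0.766-fold to 1.05-fold for ZRC1 and from 0.921-fold to 1.12-fold for COT1, so changes as large as that of ZRT1 lay outside them. COT1 gave -0.10 and -0.11 in low copper against 0.16 and 0.14 in high copper. Its low copper arrays differed by 0.006, a distance that 5057 of 5137 genes exceeded.

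Of the other Zap1 targets, ZPS1 (YOL154W) rose furthest. It encodes a protein of the cell surface that is induced in zinc-poor and alkaline medium and is related to Pra1, a secreted zinc-binding protein of Candida albicans. Its ratio was 2.57 on the first and 2.06 on the second low copper array, and 1.28 and 1.08 in high copper. All 4 were above 1, and the low copper arrays lay well above the high copper arrays. Over both conditions it rose 3.36-fold (1.75 ± 0.69, SD, n = 4, 95% interval 2.75-fold to 4.10-fold, adjusted p = 0.00903), rank 8 of 5137 genes. In low copper the rise was 4.97-fold (2.31 ± 0.36, SD, n = 2, adjusted p = 0.0284, rank 6), and in high copper 2.27-fold (1.18 ± 0.14, SD, n = 2, adjusted p = 0.0466, rank 39). A ratio of at least 2-fold in size with 1 sign on all 4 arrays, in either direction, was seen in 0.526% of all genes tested. The high copper call of ZPS1 was kept in 7 of 13 alternatives and its low copper call in 8 of 13. The high copper call was lost with separate spots (adjusted p = 0.0524), over genes on at least 3 arrays (0.0640), with the trend and robust prior (0.111) and with the replicate block (0.139). The low copper call was lost from the low copper pair alone (0.137), with the trend and robust prior (0.0717) and with the replicate block (0.133). Both were lost without either high copper array. Over both conditions the adjusted p was 0.0931 without high copper replicate 1 and 0.0845 without high copper replicate 2.

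**Figure D2:**
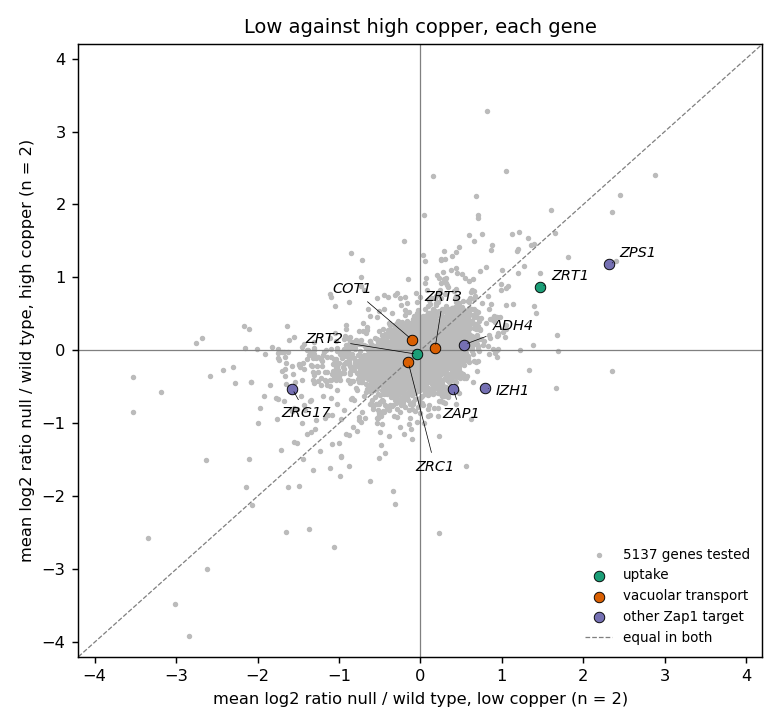
Each point is 1 gene, with its mean log2 ratio of null over wild type in low copper on the horizontal axis and in high copper on the vertical axis, each a mean of 2 arrays. ZPS1 and ZRT1 lie to the upper right of most of the 5137 genes and below the dashed line of equal ratios. Their ranks from the highest ratio were 6 and 13 in low copper and 39 and 69 in high copper. ZRG17 lies to the left, and the vacuolar transporter genes lie near the centre.

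ADH4 (YGL256W), an alcohol dehydrogenase isoenzyme induced in zinc-limited cells, gave 0.65 and 0.42 in low copper and 0.19 and -0.03 in high copper. The conditions did not overlap, and the low copper arrays were the higher. Its mean over both conditions was 0.31 ± 0.29 (SD, n = 4, adjusted p = 0.0684) and its low copper mean 0.54 ± 0.16 (SD, n = 2, adjusted p = 0.0836). Neither passed. Without low copper replicate 2, a fit in which the high copper pair alone estimates the spread, it stood at 0.37 over both conditions and at 0.65 in low copper. ADH4 and ZRT1 are neighbours on chromosome VII in the RefSeq gene table of assembly R64.

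ZAP1 (YJL056C), which encodes the activator and is its own target, varied by array. It stood at 0.99 on low copper replicate 1 and at -0.19 on low copper replicate 2, and at -0.63 and -0.42 on high copper replicates 1 and 2. The low copper arrays thus lay on opposite sides of 0, 1.18 apart, a distance exceeded by 235 of the 5137 genes. Its mean over both conditions was -0.06 ± 0.73 (SD, n = 4, adjusted p = 0.845). The sign of that mean depended on a single low copper array: it was -0.36 without replicate 1 and 0.23 without replicate 2. The high copper mean of -0.52 ± 0.15 (SD, n = 2) missed the threshold with an adjusted p of 0.356 in the fit over all arrays. When the high copper pair alone gave the spread its adjusted p was 0.0241, in a fit that called 898 of 5137 genes.

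IZH1 (YDR492W) encodes a membrane protein of the progestin and adipoQ receptor family that is implicated in zinc homeostasis. Its low copper ratios were 0.92 and 0.65 and its high copper ratios -0.43 and -0.61. The conditions lay on opposite sides of 0, as they did for 14.9% of all genes tested, and 7.88% had the low copper arrays on the upper side as IZH1 did. Its mean over both conditions, 0.14 ± 0.77 (SD, n = 4), lay between condition means of opposite sign. The low copper mean was 0.79 ± 0.19 (SD, n = 2, 1.73-fold, adjusted p = 0.0647) and the high copper mean -0.52 ± 0.13 (SD, n = 2, 0.699-fold, adjusted p = 0.0927). Neither passed in the fit over all arrays. Without low copper replicate 2 the low copper value was 0.92, that of 1 array. With the high copper pair alone the high copper adjusted p was 0.0225, in a fit that called 898 of 5137 genes.

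ZRG17 (YNR039C), which with Msc2 forms a zinc transporter of the endoplasmic reticulum, had its lowest value on 1 array. It stood at -3.19 on low copper replicate 1 and at 0.04 on low copper replicate 2, a distance that only 27 of 5137 genes exceeded. On high copper replicates 1 and 2 it stood at -0.53 and -0.52, with an adjusted p of 0.733 for that mean in the fit over all arrays. When the high copper pair alone gave the spread the adjusted p was 0.0164, in a fit that called 898 of 5137 genes. Its mean of -1.05 ± 1.45 (SD, n = 4, adjusted p = 0.246) rested on low copper replicate 1, without which it was -0.24. Without low copper replicate 2 the mean was -1.85, with -3.19 as the only low copper value. Distances over 3 between the paired arrays were found for 35 genes in low copper and for 4 in high copper. Each of the 10 genes had 1 spot, so no second spot on the same array could be set beside these values.

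For the ratios in high minus low copper, 0 of the 10 genes passed in limma, as did 0 of all 5137 genes (0% called), while 4 of the 10 and 792 of all genes (15.4%) had an unadjusted p under 0.05. Those 4 were IZH1, ZPS1, ZRT1 and ADH4, all lower in high than in low copper. The difference was -1.31 for IZH1 (95% interval -1.72 to -0.89, adjusted p = 0.224) and -1.13 for ZPS1 (-1.71 to -0.55, adjusted p = 0.256). It was -0.60 for ZRT1 (-1.12 to -0.09, adjusted p = 0.295) and -0.46 for ADH4 (-0.86 to -0.05, adjusted p = 0.295). These intervals are for single genes and are not adjusted for the number of genes.

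By order alone, the low copper arrays lay above the high copper arrays for 6 of the 10 genes, against 27.1% of all genes tested. The 6 were ZRT1, ZRT3, ZPS1, ADH4, ZAP1 and IZH1. For COT1 the high copper arrays lay above, as for 25.3% of all genes, and ZRT2, ZRC1 and ZRG17 overlapped, so that 7 of the 10 did not overlap in either order, beside 52.3% of all genes. Without centring ZRT3 overlapped too, and 5 genes kept the order with low copper above. The median difference of the 10 genes was -0.30, beside 0.013 for all genes. Since no label says in which copper the wild-type cells grew, a change in null cells with copper and a change in the wild-type channel cannot be told apart. Low copper replicate 1 was also the array with the most missing values, 17.9% against 4.79% to 5.82%, and with the widest spread over genes. Its scaled median absolute deviation was 0.377, against 0.252 to 0.261 on the others. With arrays scaled to equal spread, ZRT1 stood at 1.35 in low and 0.97 in high copper, a difference of -0.39. ZPS1 then stood at 2.14 and 1.31, IZH1 at 0.72 and -0.57, and ADH4 at 0.49 and 0.09. The part of low copper replicate 1 was otherwise tested only by leaving it out. Without low copper replicate 1 the difference was -1.17 for IZH1, -0.33 for ZAP1, -0.88 for ZPS1, -0.38 for ZRT1 and -0.56 for ZRG17. Without low copper replicate 2 the difference was -1.44 for IZH1, -1.52 for ZAP1, -1.38 for ZPS1, -0.83 for ZRT1 and 2.66 for ZRG17. Each of these fits left 1 low copper array.

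**Figure D3:**
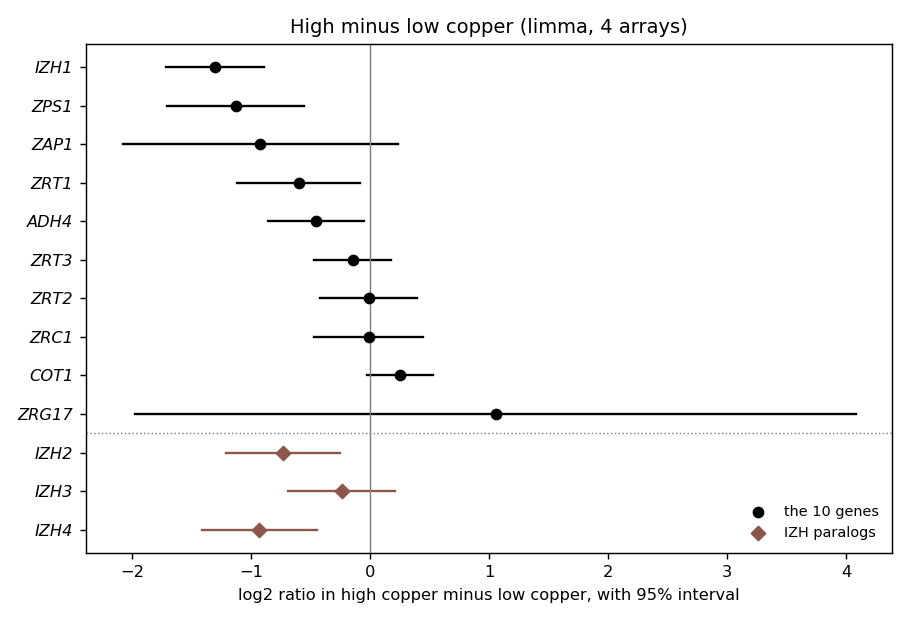
The horizontal axis gives the log2 ratio in high copper minus that in low copper, with points for the limma estimate over 4 arrays and lines for its 95% interval, not adjusted for the number of genes. IZH1, ZPS1, ZRT1 and ADH4 and the paralogs IZH2 and IZH4 have intervals below 0, while those of ZAP1 and ZRG17 are wide and include 0.

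The paralogs of IZH1 were set beside it. IZH4 (YOL101C) gave 1.16 and 0.74 in low copper and 0.04 and -0.009 in high copper, and passed over both conditions with a mean of 0.48 ± 0.57 (SD, n = 4, adjusted p = 0.0464). IZH2 (YOL002C) stood at 0.49 and 0.15 in low and at -0.29 and -0.53 in high copper (mean -0.04 ± 0.46, adjusted p = 0.733). IZH3 (YLR023C) lay below 0 on every array. It stood at -0.66 and -0.71 in low and at -0.74 and -1.11 in high copper, a 0.573-fold level over both conditions (-0.80 ± 0.21, SD, n = 4, adjusted p = 0.0232). In high copper alone IZH3 also passed (-0.93 ± 0.27, SD, n = 2, adjusted p = 0.0466), a call kept in 5 of 13 alternatives. It was lost without centring (-0.91, adjusted p = 0.0558), with separate spots (0.0524), over genes on at least 3 arrays (0.0640), with centring by blocks of spots (0.0555), with the trend and robust prior (0.219), with the replicate block (0.127) and without either high copper array. Over both conditions IZH4 lost its call without a copper term (adjusted p = 0.210) and over genes on at least 3 arrays (0.0582). Without high copper replicate 1 and without high copper replicate 2 the adjusted p was 0.259 and 0.264 for IZH4, and 0.114 and 0.162 for IZH3. The call of IZH3 over both conditions was also lost with the trend and robust prior (adjusted p = 0.107) and with the replicate block (0.0713). All 4 IZH genes had low copper arrays above high copper arrays, beside 27.1% of all genes. For IZH3 that order rested on -0.71 in low against -0.74 in high copper and was not kept without centring. The high minus low difference was -0.73 for IZH2 (95% interval -1.21 to -0.25), -0.93 for IZH4 (-1.42 to -0.45, adjusted p = 0.256) and -0.24 for IZH3 (-0.70 to 0.21), and 0 of the 4 passed in limma, with 3 at an unadjusted p under 0.05, beside 15.4% of all genes. IZH1, IZH2 and IZH4 are reported targets of Zap1, and IZH3 was listed apart from them.

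Of 14 further Zap1 targets, 12 were measured on all 4 arrays, and 2 of these were higher and 0 lower over both conditions, beside 6.44% and 5.24% of all genes. Besides IZH4, the higher one was TSA1, a peroxiredoxin, at 0.54 and 0.51 in low and 0.30 and 0.31 in high copper (1.33-fold, 0.41 ± 0.13, SD, n = 4, adjusted p = 0.0280). TSA1 was above 0 on every array, with distances of 0.03 and 0.008 within the pairs, and its adjusted p was 0.230 and 0.242 without high copper replicates 1 and 2. The median of the 12 was -0.027 over both conditions, beside -0.015 for all genes. In low and in high copper alone 0 of the 12 passed in limma, with 2 and 3 at an unadjusted p under 0.05, beside 30.5% and 24.6% of all genes. FET4, a low-affinity metal transporter of the plasma membrane with 2 spots, had a mean of 0.18 ± 0.13 (adjusted p = 0.121), and its spots averaged 0.12 and 0.24. VEL1, a gene induced strongly by zinc scarcity, stood at -1.01 on low copper replicate 1 and between -0.17 and 0.09 on the other 3 arrays (adjusted p = 0.404). YOR387C and ZRG8, measured on 3 arrays, did not pass in the fit over at least 3 arrays (adjusted p = 0.131 and 0.433).

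**Figure D4:**
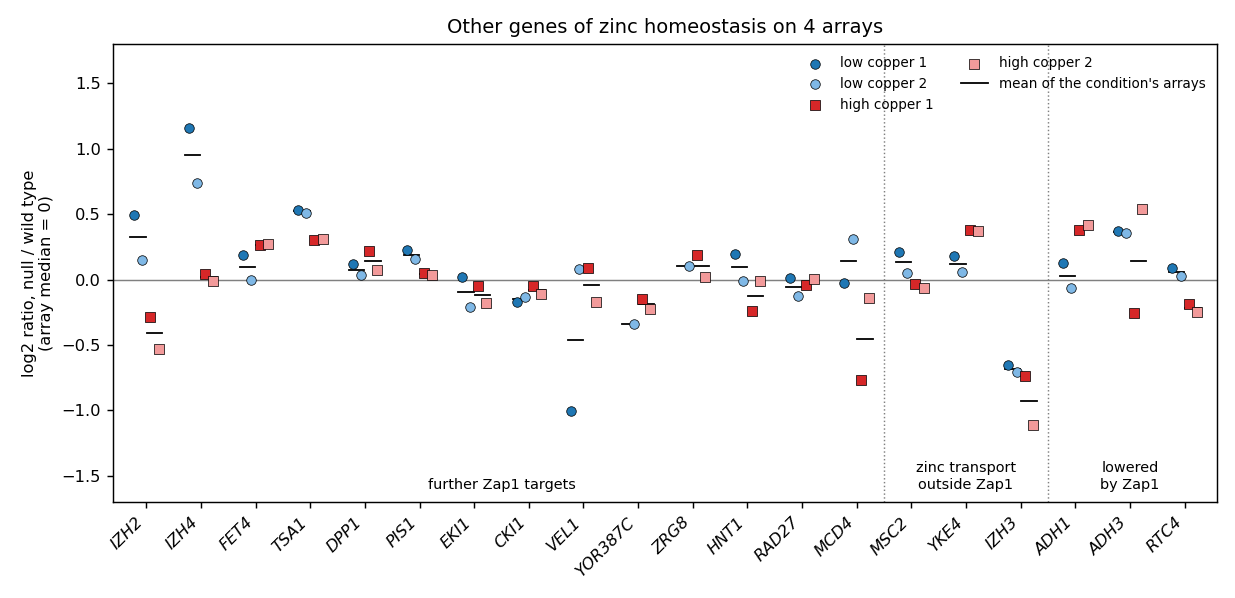
Each point is the log2 ratio of null over wild type (vertical axis) of 1 gene on 1 array, with circles for low copper, squares for high copper and bars for the mean of a condition's measured arrays. By the mean over 4 arrays IZH4 (0.48) and TSA1 (0.41) are the highest of the further Zap1 targets, IZH4 stands near 0 in high copper, and IZH3 lies below 0 on all 4 arrays.

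The genes listed outside Zap1 control were the zinc transport genes MSC2 and YKE4 and the IZH1 paralog IZH3. Of these IZH3 alone passed, and neither transport gene did. MSC2, which encodes the partner of Zrg17, stood at 0.04 ± 0.12 (SD, n = 4, adjusted p = 0.627). YKE4, a zinc transporter gene of the endoplasmic reticulum, stood at 0.18 and 0.06 in low and at 0.38 and 0.37 in high copper (adjusted p = 0.0624). None of the 3 genes listed as lowered by Zap1 passed in limma over both conditions, and 1 had an unadjusted p under 0.05. That gene, ADH1, the main fermentative alcohol dehydrogenase, stood at 0.03 ± 0.14 in low and 0.40 ± 0.03 in high copper (SD, n = 2). ADH3, its mitochondrial relative, stood at 0.37 and 0.36 in low and at -0.26 and 0.54 in high copper. The -0.26 falls in a run of 552 spots on high copper replicate 1 whose values correspond to the spots 24 places on. That run held none of the 10 genes but also touched ZRG8, MCD4 and ADH2. The main fit, with its shares of all genes and its counts of ADH3 and ADH2, kept these values as deposited. With the run moved back 751 genes were called over both conditions, 63 in low and 201 in high copper, against 600, 34 and 132. Called higher in low copper were then 30 of 5148 genes, against 12 of 5137. The counts of the 10 genes stayed at 2, 2 and 1. Of 8 alcohol dehydrogenase genes 0 passed in limma over both conditions, beside 11.7% of all genes, and 3 had an unadjusted p under 0.05, beside 35.6%. The smallest p-values among them were those of BDH1 (-0.22 ± 0.15, SD, n = 4, adjusted p = 0.0749) and SFA1 (-0.20 ± 0.06, adjusted p = 0.0858).

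The genes most like ZPS1 and ZRT1 were found by the root mean square difference of the log2 ratios over the 4 arrays, among the 5136 other genes. For ZPS1 they were YOL014W (0.57), ZRT1 (0.64), PHO84 (0.66), VTC1 (0.67) and HXT2 (0.70). For ZRT1 they were TIP1 (0.25), VTC1 (0.30), PHO12 (0.31), PHO5 (0.31) and PHO11 (0.33). PHO11 and PHO12 are near-identical copies whose spots may share RNA, so they do not count as separate measurements. None of the 5 nearest to ZRT1 was another of the 10 genes, while ZRT1 was the second nearest to ZPS1. The protein-coding genes beside ZPS1 and ZRT1 were read as well, outside the naming rule. HPF1, next to ZPS1, passed at 0.64 (adjusted p = 0.0249), while FRE7 on its other side lay between -0.51 and -0.21 on 3 arrays. FZF1, next to ZRT1, stood at -0.24 (adjusted p = 0.101).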

How the data were processed

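RNA of null and wild-type yeast cells was compared on 4 spotted two-colour arrays. The deposited table gives 1 log2 ratio per spot and array. What the authors did to normalize it, its log base and its direction are not given in the sources used here, and the values were read as log2 of Cy5 over Cy3. Signals above background were not used here. Spots were named through the platform annotation and RefSeq R64 (6956 of 8832 named). Arrays were grouped by the copper label of the null cells and numbered in record order. Low copper replicate 2 and high copper replicate 1 are the repeats.

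Array medians over the spots with 4 values were set to 0, which moved low copper replicate 1 by 0.157. A gene's complete spots were averaged. Limma 3.58.1 in R 4.3.3 (lmFit, eBayes) was fitted to 5137 genes with a mean per copper condition, 2 residual and 2.22 prior degrees of freedom, and Benjamini-Hochberg adjustment over all genes at 0.05. The fit was tested on simulated data. Exact permutations of 2 against 2 arrays could not go below p = 0.333 and were not used. Members and lists were chosen with earlier results of these data known. All 10 members were named, with list genes past the threshold or else the 2 of smallest p, some others of the lists with values of interest (FET4, VEL1, MSC2, YKE4, YOR387C, ZRG8), paralogs, HAA1 and the 5 nearest genes. The planned promoter motif search was not run. Alternatives were no centring, equal spread, separate spots, genes on at least 3 arrays, each array left out, the repeat mark as a replicate block, no copper term, separate pairs, the displaced run moved back, a trend and robust prior in eBayes and centring by blocks of spots.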

Additional observations from a re-analysis of the deposited data

Results flagged for a closer look

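For 2 of the 10 genes both low copper arrays lay on one side of 0 and both high copper arrays on the other. The high minus low difference was -1.31 for IZH1 and 0.25 for COT1. Limma's test of the difference did not pass for either (adjusted p = 0.224 and 0.355), and 14.9% of all genes tested had the same arrangement. Both kept it in the values as deposited, without centring. With 2 arrays a condition, no test for a single deviating array was made.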

How the results depend on the processing

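For the 10 genes with IZH2, IZH3, IZH4 and TSA1, 607 of 714 recomputed ratios kept their sign and their side of the threshold. Of the others 45 lost a call, 37 gained one and 25 changed sign, all 25 of them for values that had not passed. Only ratios called in the main fit could lose a call, and most of the 714 were not called there. Over both conditions the call was kept in 10 of 13 alternatives for ZPS1, ZRT1 and TSA1, in 9 for IZH3 and in 8 for IZH4. In low copper it was kept in 8 of 13 for ZPS1 and in 5 of 13 for ZRT1. In high copper it was kept in 7 of 13 for ZPS1 and in 5 of 13 for IZH3. The count of the 10 genes called over both conditions (2) ranged from 0 to 4 with 1 array left out. It ranged from 0 to 6 in low copper (2), from 0 to 5 in high copper (1) and from 0 to 5 for the difference (0). With the repeat mark as a replicate block the counts were 0 over both conditions, 0 in low and 0 in high copper, with adjusted p over both conditions of 0.0573 for ZPS1 and 0.0543 for ZRT1, and of 0.0713 for IZH3, 0.0865 for IZH4 and 0.0797 for TSA1. The labels give the arrays no shared culture or day, and the deviations of the repeat arrays correlated at 0.087 across genes. In low copper the count was 1 without centring (19 called of all genes), 1 with separate spots (37) and 1 with genes on at least 3 arrays (28). It was 0 from its own pair (0 of all genes) and 0 with a trend and robust prior (0). In high copper it was 3 with equal spread (387 called of all genes), 0 with separate spots (130) and 0 with genes on at least 3 arrays (71). There it was 5 from its own pair (898 of all genes) and 0 with the trend and robust prior (0). Of all genes, 600, 34, 132 and 0 were called over both conditions, in low, in high copper and for the difference, with up to 1940, 1438, 898 and 743 and as few as 0 under the alternatives. Without centring 181 genes were higher and 225 lower over both conditions, against 331 and 269, and with the trend and robust prior 348 were higher and 0 lower.

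Sign changes with centring by blocks of spots were at 0.012 for ZRT2 and -0.039 for COT1 over both conditions and at 0.048 for ZRT2 in low and -0.014 for IZH4 in high copper. Without centring COT1 stood at -0.023 over both conditions, and the differences of ZRT2 and ZRC1 at 0.094 and 0.096. With equal spread the difference of ZRT2 was 0.0049. With 1 array left out the ranges over both conditions were -0.12 to 0.027 for ZRT2, -0.36 to 0.23 for ZAP1 and -0.13 to 0.041 for IZH2. In low copper they were -0.18 to 0.11 for ZRT2, -0.34 to 0.036 for ZRC1, -0.19 to 0.99 for ZAP1 and -3.19 to 0.036 for ZRG17. In high copper they were -0.12 to 0.009 for ZRT2, -0.005 to 0.071 for ZRT3, -0.029 to 0.19 for ADH4 and -0.009 to 0.04 for IZH4. For the difference they were -0.16 to 0.13 for ZRT2, -0.20 to 0.17 for ZRC1 and -0.56 to 2.66 for ZRG17. Leaving out an array leaves the complete pair alone to set the spread, and the cause of the other changes was not tested. Signal over background was unknown, and 4 arrays limited the precision.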
